A study of Homo sapiens with 6 samples.

Results

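The proteasome is the protein complex that degrades most ubiquitin-marked proteins of the cell, and its subunit genes were followed here in RNA-seq of PD-treated HepG2 cells. The genes were chosen by symbol: the protein-coding genes named PSMA to PSMG with a number, without PSMB8 and PSMB9, together with POMP, ADRM1 and NFE2L1. This gave 50 of the 28563 genes measured, namely 16 of the core particle, 18 of the regulatory cap, 8 assembly factors, 5 alternative activators or inhibitors, the transcription factor NFE2L1, and 2 genes that carry such a symbol but are no known subunit (PSMC3IP and PSME3IP1). HepG2 is a human line that the labels describe as hepatocellular carcinoma cells, and PD is polydatin, a glucoside of resveratrol. Plates of the line were assigned at random to 3 PD and 3 DMSO samples, and RNA was taken 24 h after 336 µM of PD or the solvent DMSO was added, the dose being the one in the labels (the study's methods text gives a somewhat lower one). Poly(A) RNA was sequenced as paired ends, and each gene's level was deposited as FPKM, fragments per kilobase of exon, scaled to the fragments of the library. The labels do not say that the plates came from separate cultures, so the p-values below measure the spread between plates.

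In the background, the core is a barrel of stacked alpha and beta rings, and its cutting sites face the inside, on the beta subunits PSMB5, PSMB6 and PSMB7. The cap binds ubiquitin chains, removes them, unfolds the substrate with a ring of ATPases and feeds it into the core. Dedicated assembly factors build both particles and are not part of the finished complex, and NFE2L1 is the transcription factor that raises the subunit genes together when proteasome activity is low, through antioxidant response elements in their promoters.

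The libraries held between 16763318 and 17274927 fragments on genes in the DMSO group and between 16308476 and 18071632 in the PD group, numbers worked back from the FPKM. The label was checked with hepatocyte markers, of which 9 of the 17 listed were analysed. Only CPS1, a urea cycle enzyme, and RBP4 reached 1 FPKM in any library, while APOA1, TF, SERPINA1, FGA, FGG and HNF4A had group means below 0.1 FPKM. The defining liver genes therefore did not bear out the label in these libraries, and ALB and AFP were not analysed here. The summed level of the hepatocyte markers, almost all of it CPS1, ran from 222.2 to 229.0 FPKM in DMSO and from 107.4 to 112.6 FPKM in PD. RBP4 went the other way, with 0.479, 0.371 and 0.323 FPKM in DMSO and 1.108, 1.732 and 1.058 FPKM in PD. The sum of the epithelial markers ran from 103.1 to 109.1 FPKM in DMSO and from 125.5 to 132.2 FPKM in PD. KRT8 and CLDN4 were higher in every PD library, whereas the groups overlapped in KRT18 and EPCAM. CDH1 was lower in every PD library, with group means of 0.127 FPKM in DMSO and 0.034 FPKM in PD. The sums of the fibroblast markers (4.40 to 5.29 and 4.75 to 5.05 FPKM), blood cell markers (0.425 to 0.567 and 0.498 to 0.633) and intestinal markers (0.0584 to 0.152 and 0.0149 to 0.0634) were low in both groups, and the part of these shifts in the results below was not tested.

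Of the 50 genes, 46 reached a mean of 0.5 FPKM and were tested, on between 111 and 8456 fragments per gene and library. PD treatment moved the proteasome genes in both directions and by small amounts. By limma on log2(FPKM + 1), with p-values adjusted by the Benjamini-Hochberg method over all 14400 genes tested, 32 members passed an adjusted p of 0.05, or 69.6%, against 58.1% of all genes tested. Of these, 13 were higher in PD (28.3%, against 31.9% of all genes) and 19 were lower (41.3%, against 26.2%), while 14 did not pass. None reached 2-fold, as 3.61% of all genes did. The largest changes were the rise of PSMD4 and the fall of PSMG4, with ratios of PD to DMSO mean FPKM of 1.58 and 0.620. The median log2 fold change was -0.02 over the members and 0.01 over all genes tested, with a range of -0.50 to 0.65 among members, and the members' median turned to 0.01 without PD replicate 1. The PD and DMSO libraries did not overlap in 35 members (76.1%, against 65.4% of all genes), with PD above in 14 (against 35.6% of all genes) and below in 21 (against 29.9%). Because 1 FPKM was added before logs were taken, fold changes of the lowest genes came out smaller than their FPKM ratios.

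**Figure D1:**
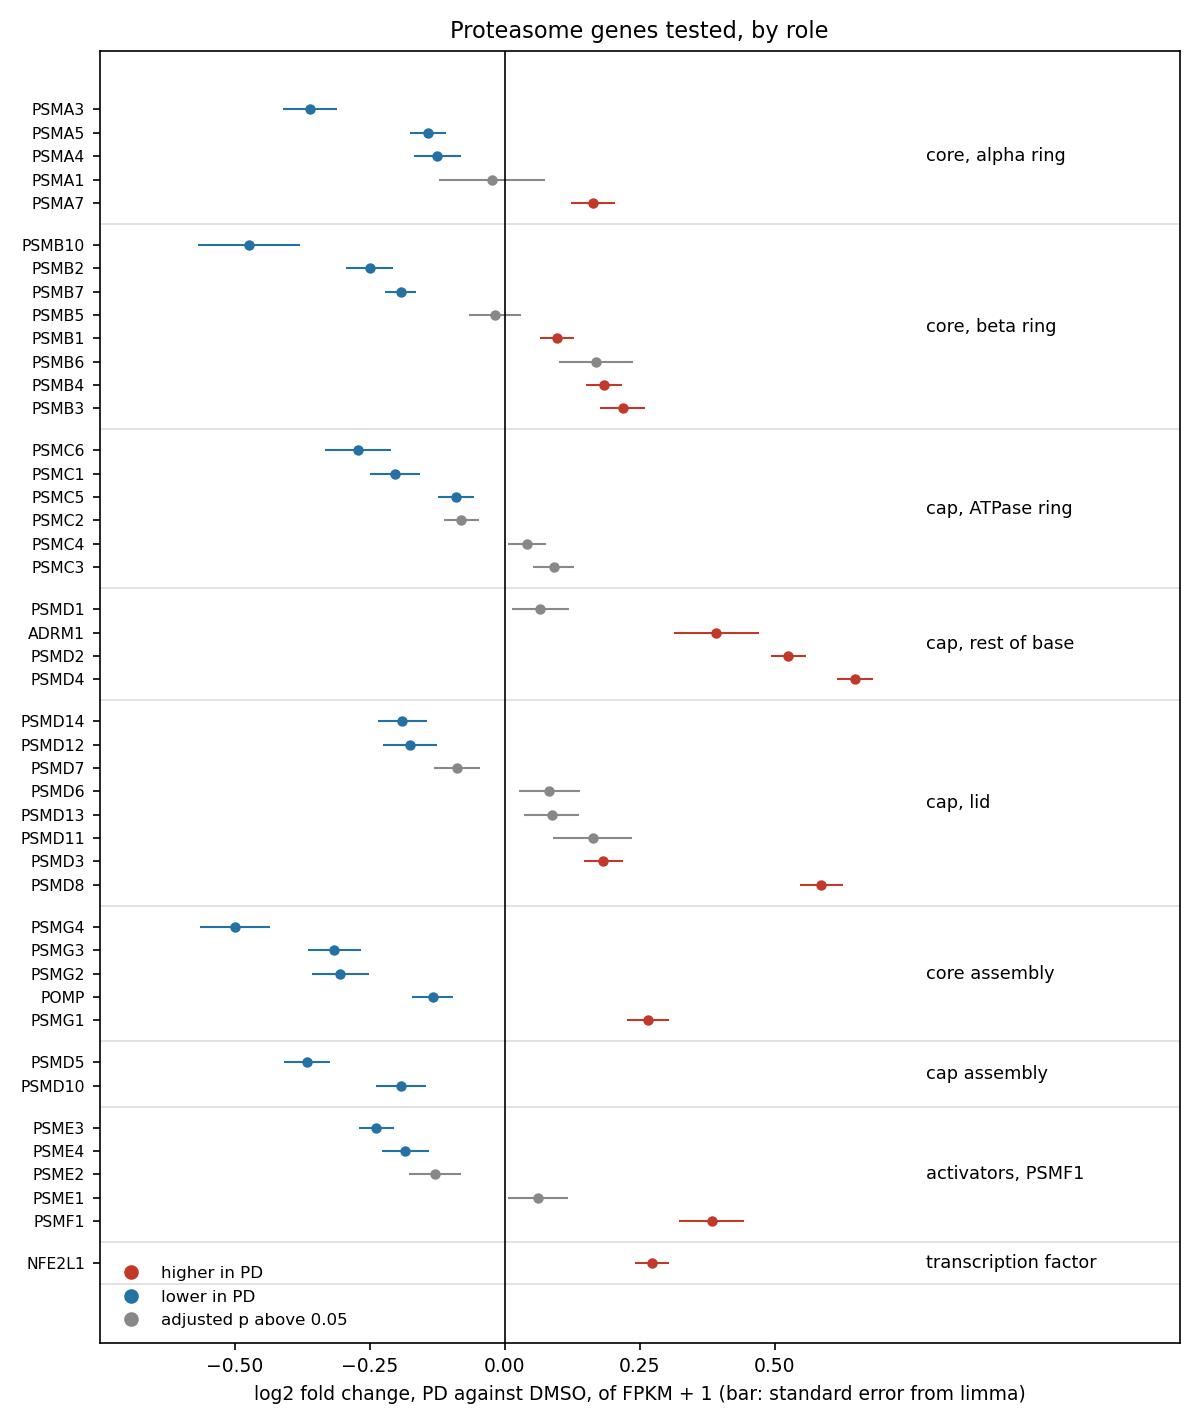
Log2 fold change of FPKM + 1, PD against DMSO, for the tested proteasome genes grouped by role, each point with its standard error from limma and coloured by its call at an adjusted p of 0.05. The cap genes PSMD4, PSMD8 and PSMD2 lie farthest to the right, at 0.65, 0.59 and 0.53, and among the assembly factors PSMG1 alone lies to the right of 0.

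The promoter stretches of 3 genes described below are shown for the motif that NFE2L1 and its relatives are known to bind. ADRM1 and PSMD8 were among the largest rises of the cap and PSMD5 was among the largest falls of the assembly factors, so a rise and a fall can be read beside the same letters. Each stretch holds the 250 bases before a transcription start in RefSeq (GRCh38.p14), 5′ to 3′ on the gene's strand, and capitals mark each match to TGACNNNGC or TGAGNNNGC on either strand.
ADRM1, chr20:62302646-62302895, plus strand: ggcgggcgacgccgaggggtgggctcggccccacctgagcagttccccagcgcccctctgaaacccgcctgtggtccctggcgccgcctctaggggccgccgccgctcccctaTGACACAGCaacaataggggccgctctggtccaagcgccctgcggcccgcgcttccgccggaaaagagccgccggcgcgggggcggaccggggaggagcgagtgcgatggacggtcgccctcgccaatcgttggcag
PSMD8, chr19:38374321-38374570, plus strand: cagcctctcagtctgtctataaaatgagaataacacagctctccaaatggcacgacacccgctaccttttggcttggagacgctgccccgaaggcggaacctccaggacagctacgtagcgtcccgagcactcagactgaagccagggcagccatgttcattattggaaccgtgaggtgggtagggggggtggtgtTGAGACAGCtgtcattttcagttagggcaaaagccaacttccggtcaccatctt
PSMD5, chr9:120842923-120843172, minus strand: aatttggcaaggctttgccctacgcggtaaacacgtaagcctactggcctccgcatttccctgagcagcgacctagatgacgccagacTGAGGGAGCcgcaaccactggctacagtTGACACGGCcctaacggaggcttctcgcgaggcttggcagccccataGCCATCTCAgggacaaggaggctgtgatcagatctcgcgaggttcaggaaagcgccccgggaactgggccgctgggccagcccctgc
The ADRM1 stretch held TGACACAGC starting 137 bases before this start, PSMD8 held TGAGACAGC starting 54 bases before, and PSMD5 held TGACACGGC starting 134 bases before, besides TGAGGGAGC at 162 and GCCATCTCA, the match on the other strand, at 87 bases before. All 3 genes shown hold a match, so they do not tell how often a rise or a fall goes with these letters. Neither motif stood in the stretches of PSMD2, which rose more than ADRM1. PSMG4, the largest fall, had neither as well, at a RefSeq start 27544 bases inside the gene. The ADRM1 start lies 803 bases inside the gene as GENCODE draws it, whereas those of PSMD8 and PSMD5 lie within 8 and 29 bases of the annotated start.

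Among the 18 cap genes, 5 rose (27.8%, against 31.9% of all genes), 5 fell (27.8%, against 26.2%) and 8 did not pass the test. Both shares lay near those of all genes. The median log2 fold change of the cap was 0.07, or -0.014 with the correction for GC content and transcript length described last. The largest rises of the whole set were here. PSMD4, a ubiquitin receptor of the cap (chr1:151254709-151267479, plus strand, GRCh38), had 40.1, 37.9 and 37.8 FPKM in the DMSO libraries and 61.4, 61.6 and 60.3 FPKM in the PD libraries. Each PD library was far above every DMSO library, and the log2 fold change was 0.65 ± 0.03 (SE) with an adjusted p of 8.3e-06 by limma. PSMD2, a scaffold of the cap base that also binds ubiquitin and ubiquitin-like domains (chr3:184299198-184309050, plus strand), had 48.5, 47.6 and 50.5 FPKM in DMSO and 70.0, 72.3 and 70.2 FPKM in PD. The groups were again well apart, with a log2 fold change of 0.53 ± 0.03 (SE) and an adjusted p of 1.7e-05 by limma. ADRM1, the receptor that also holds the deubiquitinase UCHL5 (chr20:62302093-62308862, plus strand), had 24.7, 20.6 and 23.3 FPKM in DMSO and 27.6, 31.7 and 31.6 FPKM in PD. PD replicate 1 lay closest to the DMSO range but still above it, and the log2 fold change was 0.39 ± 0.08 (SE) with an adjusted p of 0.004 by limma. Exons on the other strand cover 17.2% of its exon bases, and 25 of the 50 genes overlap exons of another gene on some strand, which makes their values less certain. These 3 genes encode the ubiquitin receptors of the cap, a grouping made after their values were seen. The remaining gene of the cap base outside the ATPase ring, the scaffold PSMD1, had 14.1, 14.0 and 15.0 FPKM in DMSO and 15.8, 14.1 and 15.5 FPKM in PD, with overlapping groups and an adjusted p of 0.32 by limma.

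The lid of the cap, which carries the deubiquitinase that trims the ubiquitin chain, was divided, with 2 genes higher, 2 lower and 4 not called. Each direction held 25.0% of the lid genes, against 31.9% higher and 26.2% lower of all genes. PSMD8, a structural lid subunit (chr19:38374563-38383850, plus strand), had 24.9, 23.4 and 23.3 FPKM in DMSO and 35.3, 37.1 and 36.7 FPKM in PD. The groups lay apart by more than their own spread, with a log2 fold change of 0.59 ± 0.04 (SE) and an adjusted p of 2.3e-05 by limma. PSMD3, another lid scaffold, rose by 0.18 on the log2 scale, a call that was lost with a correction for GC content and transcript length (adjusted p of 0.248 by limma). PSMD14, the lid's deubiquitinase itself, fell by 0.19 and PSMD12 fell by 0.18, and both calls were lost with that correction (adjusted p of 0.11 and 0.083 by limma). The call of PSMD12 was also lost without DMSO replicate 1, PD replicate 2 or PD replicate 3.

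The 6 ATPase genes encode the ring that unfolds the substrate. None passed as higher, 3 fell and 3 did not pass, beside 31.9% higher and 26.2% lower of all genes. The median log2 fold change of the ATPase genes was -0.09. The largest fall was that of PSMC6, with 7.93, 7.59 and 7.81 FPKM in DMSO and 6.77, 5.73 and 6.36 FPKM in PD. The groups did not overlap, and its log2 fold change was -0.27 ± 0.06 (SE) with an adjusted p of 0.0069 by limma. PSMC1 fell by 0.20, but 76.1% of its exon bases lie opposite another gene's exons and the sources used here do not say whether the counting used strand. PSMC5 fell by 0.09 with an adjusted p of 0.048, and this call was lost when any 1 of the 6 libraries was left out (adjusted p of 0.063 to 0.149 by limma). PSMC3, the most abundant of the ring at a mean of 89.8 FPKM, was not called, with a log2 fold change of 0.09.

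**Figure D2:**
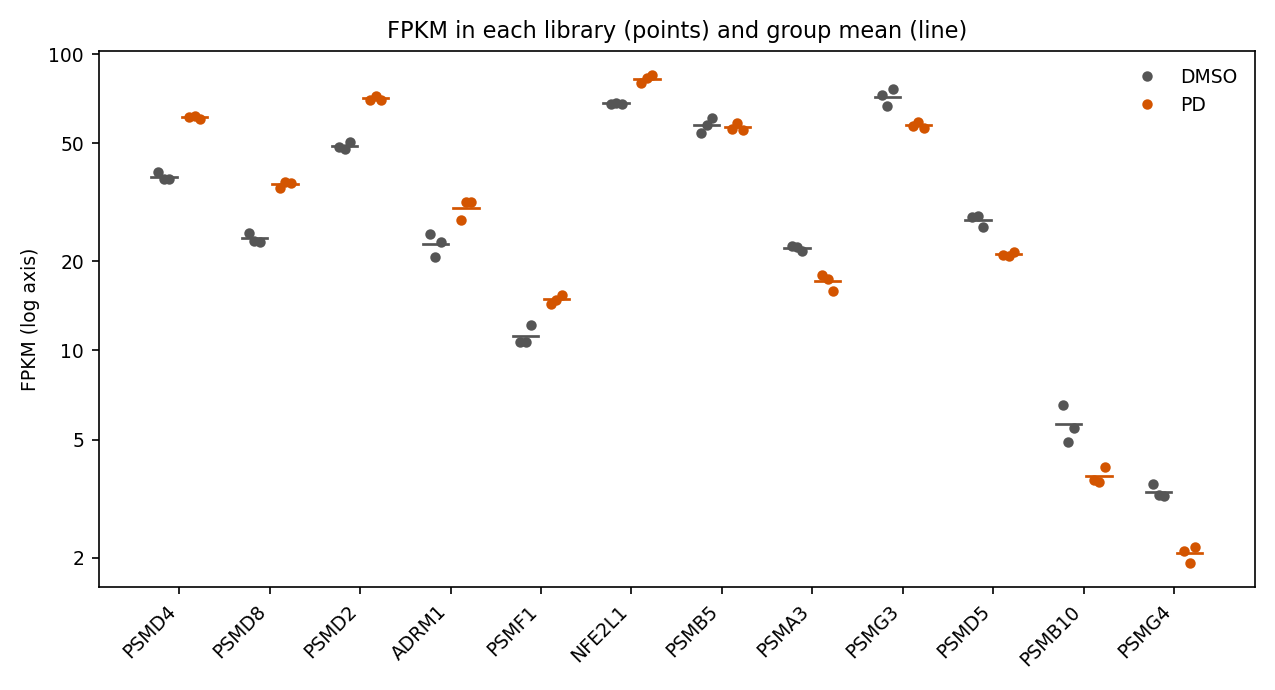
FPKM (log axis) of genes described in full in each DMSO and PD library, with points for libraries and a line for each group mean (n = 3). PSMB6, PSMB7 and POMP are not drawn. PSMD4, PSMD8 and PSMD2 show PD points well above the DMSO points, PSMG4 shows the reverse at about 2 to 3.5 FPKM, and the PD and DMSO points of PSMB5 overlap.

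Of the 16 core genes, 13 were tested, of which 4 rose (30.8%, against 31.9% of all genes), 6 fell (46.2%, against 26.2%) and 3 did not pass. The median log2 fold change of the core was -0.02. The alpha ring gates the entry to the barrel. It had 1 gene higher, 3 lower and 1 not called among 5 tested, beside 31.9% higher and 26.2% lower of all genes. PSMA3 had 22.5, 22.4 and 21.7 FPKM in DMSO and 17.9, 17.5 and 15.9 FPKM in PD. All PD libraries lay below all DMSO libraries, with a log2 fold change of -0.36 ± 0.05 (SE) and an adjusted p of 0.00065 by limma. PSMA5 and PSMA4 fell by 0.14 and 0.12, the latter with an adjusted p of 0.044 by limma that was lost when any library but DMSO replicate 1 was left out. PSMA7, the most abundant gene of the whole set, ran the other way, with 176, 170 and 189 FPKM in DMSO and 201, 201 and 197 FPKM in PD. It rose by 0.16 on the log2 scale, by less in proportion than the cap receptors.

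The beta ring, which holds the cutting sites, had 3 genes higher, 3 lower and 2 not called among 8 tested. Each direction held 37.5% of them, against 31.9% higher and 26.2% lower of all genes. The 3 genes of the standard catalytic subunits did not move together. PSMB5, the subunit with chymotrypsin-like activity, had 54.0, 57.8 and 60.8 FPKM in DMSO and 56.0, 58.7 and 55.6 FPKM in PD. The groups overlapped, and the log2 fold change was -0.02 ± 0.05 (SE) with an adjusted p of 0.77 by limma. PSMB6, the subunit with caspase-like activity, had 32.7, 28.0 and 31.5 FPKM in DMSO and 32.2, 35.7 and 36.0 FPKM in PD. PD replicate 1 lay within the DMSO range, and the log2 fold change was 0.17 ± 0.07 (SE) with an adjusted p of 0.066 by limma, which became a call without DMSO replicate 1 (0.045) or PD replicate 1 (0.035). PSMB7, the subunit with trypsin-like activity, had 130, 131 and 134 FPKM in DMSO and 112, 117 and 116 FPKM in PD. Here the groups lay apart, and the gene fell by 12.6%, with a log2 fold change of -0.19 ± 0.03 (SE) and an adjusted p of 0.001 by limma.

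Among the structural beta genes, PSMB3 and PSMB4 rose by 0.22 and 0.18 on the log2 scale and PSMB2 fell by 0.25. PSMB4, the second most abundant gene of the set, had 129, 129 and 135 FPKM in DMSO and 147, 146 and 154 FPKM in PD, without overlap. PSMB1 rose by 0.10 with an adjusted p of 0.03 by limma, which was lost under most of the other settings, among them both other scalings and 5 of the 6 omissions of a library. PSMB10, the trypsin-like subunit of the immunoproteasome, a form of the core best known from immune cells, had 6.53, 4.89 and 5.49 FPKM in DMSO and 3.64, 3.60 and 4.04 FPKM in PD. The PD libraries were all lower and closer together, with a log2 fold change of -0.47 ± 0.09 (SE) and an adjusted p of 0.0038 by limma. PSMB9 and PSMB8, which the choice of genes left out, went the other way. Their log2 fold changes were 0.22 and 0.09 (adjusted p of 0.0081 and 0.035 by limma). The call of PSMB8 was lost with both other scalings (adjusted p of 0.158 and 0.238 by limma). In PSMB10, 58.3% of the coding bases are shared with another annotated gene on its own strand. That gene had 20, 16 and 16 fragments in DMSO and 17, 11 and 13 in PD, against 209, 152 and 174 and then 122, 117 and 122 for PSMB10. How shared fragments were counted is not given in the sources used here, so the value is uncertain.

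Most of the assembly factors chosen by symbol fell, with 1 gene higher (14.3%, against 31.9% of all genes), 6 lower (85.7%, against 26.2%) and none without a call among the 7 tested, and their median log2 fold change was -0.30. PAAF1, which binds the ATPases during assembly but carries no such symbol, rose by 0.49 and is described below. Over all alternative settings 1 of them was higher and 5 or 6 were lower, whereas between 3 and 4 core genes were higher and 5 or 6 lower, and between 4 and 6 cap genes were higher and 3 to 7 lower. With so few genes per role these counts are a description of the list. PSMG1 to PSMG4 form chaperone pairs that help to build the alpha ring. PSMG4 (chr6:3231403-3303373, plus strand) had 3.53, 3.25 and 3.22 FPKM in DMSO and 2.103, 1.917 and 2.178 FPKM in PD. All PD libraries were well below all DMSO libraries, and the gene fell by 38.0%, with a log2 fold change of -0.50 ± 0.07 (SE) and an adjusted p of 0.0005 by limma. Opposite-strand exons cover 15.0% of its exon bases. PSMG3, the partner of PSMG4, had 72.7, 66.8 and 76.0 FPKM in DMSO and 57.2, 58.8 and 56.5 FPKM in PD. The groups did not overlap, although DMSO replicate 2 was the nearest to PD, and the log2 fold change was -0.32 ± 0.05 (SE) with an adjusted p of 0.0012 by limma.

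The other chaperone pair split. PSMG2 had 13.7, 14.9 and 14.2 FPKM in DMSO and 11.9, 10.6 and 11.6 FPKM in PD, a fall of 0.30 on the log2 scale with an adjusted p of 0.0021 by limma. Its partner PSMG1 had 43.2, 40.9 and 43.0 FPKM in DMSO and 50.03, 50.3 and 53.2 FPKM in PD. The groups were apart in both genes but in opposite directions, and PSMG1 rose by 0.27 with an adjusted p of 0.00082 by limma. POMP, which matures the core as it closes and is then its first substrate, had 47.6, 44.4 and 46.4 FPKM in DMSO and 42.2, 40.7 and 43.1 FPKM in PD. The groups came close without overlapping, and the log2 fold change was -0.13 ± 0.04 (SE) with an adjusted p of 0.02 by limma, which was lost without DMSO replicate 1 (0.065) or PD replicate 2 (0.070).

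The assembly factors of the cap hold its ATPases apart until the ring is built. PSMD5 (chr9:120815496-120842951, minus strand) had 28.1, 28.4 and 26.0 FPKM in DMSO and 21.0, 20.8 and 21.5 FPKM in PD. The PD libraries were lower and close together, and the gene fell by 23.2%, with a log2 fold change of -0.37 ± 0.04 (SE) and an adjusted p of 0.00028 by limma. PSMD10, also called gankyrin, had 28.1, 27.6 and 27.3 FPKM in DMSO and 25.8, 23.2 and 23.4 FPKM in PD, a fall of 0.19 with an adjusted p of 0.0097 by limma. PSMD9, the remaining cap factor chosen by symbol, was below the 0.5 FPKM limit, with 56, 41 and 47 fragments in DMSO and 55, 48 and 52 fragments in PD, and in a limma-voom fit on fragments it was not called (log2 fold change of 0.09, adjusted p of 0.717). An antisense gene, PSMG3-AS1, had 1.33, 1.36 and 1.43 FPKM in DMSO and 3.41, 3.40 and 3.24 FPKM in PD and was singled out after its values were seen. It was higher in every PD library while PSMG3 was lower, with a log2 fold change of 0.87 ± 0.06 (SE) and an adjusted p of 2.6e-05 by limma. PSMA3-AS1, named for PSMA3, fell as PSMA3 did, from 4.58, 4.49 and 3.68 FPKM in DMSO to 3.08, 2.795 and 3.32 FPKM in PD (log2 fold change of -0.37, adjusted p of 0.0089 by limma). PSMG3 shares 3.04% of its exon bases with genes on the other strand, whereas PSMA3 shares 0.0% with other genes. Without a stated strand of counting, the reads in the overlap of PSMG3 cannot be told apart.

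The roles were also compared by their summed FPKM, where each library gives 1 value and no test was made. The summed cap genes were 0.652, 0.646 and 0.640 of the summed core genes in the DMSO libraries (0.646 ± 0.0061, SD, n = 3) and 0.713, 0.713 and 0.715 in the PD libraries (0.714 ± 0.0012, SD, n = 3). The groups lay apart by many times their spread. The sums were not corrected for GC content or length, and PSMA1, PSMA2 and PSMA6, at low FPKM, added little to the core sum. Without PSMD2, PSMD4, PSMD8 and ADRM1, the 4 largest rises, the same ratio was 0.472, 0.476 and 0.470 in DMSO and 0.468, 0.461 and 0.465 in PD. These genes were picked by the same values, so their removal had to lower the ratio more in PD than in DMSO, and the second ratio is only a description. PSMD2, PSMD4 and ADRM1 made up 22.6%, 21.5% and 22.0% of the summed cap in DMSO and 28.1%, 28.9% and 28.5% in PD. For the assembly factors the ratio to the core was 0.309, 0.296 and 0.298 in DMSO (0.301 ± 0.0067, SD, n = 3) and 0.266, 0.257 and 0.266 in PD (0.263 ± 0.0051, SD, n = 3), with every PD library lower. The members together took 0.544% to 0.551% of the fragments of a DMSO library and 0.564% to 0.570% of a PD library. In bulk samples, a change in the amount of RNA per cell and a change in the mixture of cells cannot be told apart.

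**Figure D3:**
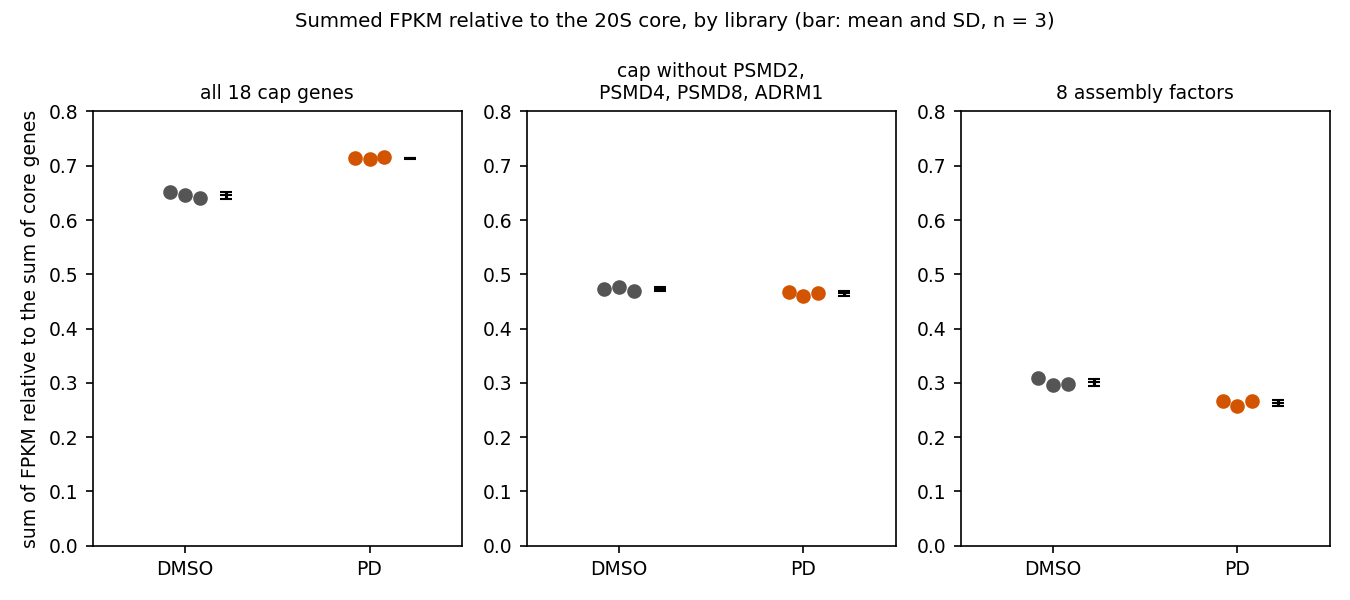
Summed FPKM of the cap genes, of the cap genes without PSMD2, PSMD4, PSMD8 and ADRM1, and of the assembly factors, each relative to the summed core genes of the same library, with points for libraries and bars for the mean and SD (n = 3). The cap ratio rises from 0.646 to 0.714, the reduced cap ratio is 0.473 in DMSO and 0.465 in PD, and the assembly ratio goes from 0.301 to 0.263.

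The activators that can replace the cap, and the inhibitor PSMF1, did not share a direction. Among them 1 gene was higher, 2 were lower and 2 were not called, beside 31.9% higher and 26.2% lower of all genes. PSMF1, known as PI31, had 10.7, 10.6 and 12.2 FPKM in DMSO and 14.3, 14.8 and 15.4 FPKM in PD. Every PD library was higher, with a log2 fold change of 0.38 ± 0.06 (SE) and an adjusted p of 0.0012 by limma. PSME3, the nuclear activator, had 59.0, 58.9 and 57.3 FPKM in DMSO and 48.1, 50.7 and 49.5 FPKM in PD, a clear fall of 0.24 on the log2 scale with an adjusted p of 0.00057 by limma. PSME4, another nuclear activator, fell by 0.18. PSME1 and PSME2, the subunits of the interferon-induced activator, were not called, with log2 fold changes of 0.06 and -0.13, although PSME2 passed under several other settings. Of the pair that is no known part of the proteasome, PSMC3IP, a recombination protein, rose by 0.38 with 30.3% of its exon bases in overlap with genes on the other strand, and PSME3IP1 was not called.

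NFE2L1 was the fifth most abundant of the 50 genes. It had 67.9, 68.6 and 67.8 FPKM in DMSO and 80.0, 82.8 and 84.9 FPKM in PD. The PD libraries were all higher by more than the spread of either group, and the gene rose by 21.2%, with a log2 fold change of 0.27 ± 0.03 (SE) and an adjusted p of 0.00025 by limma. With the GC and length correction this fell to 0.12 (adjusted p of 0.013 by limma). NFE2L1 protein is held in the endoplasmic reticulum membrane, pulled out, stripped of sugars and cut before it enters the nucleus, and its transcript level says nothing of these steps. Of 11 genes listed around the handling of NFE2L1 protein, OGT and HCFC1 among them, 6 rose, 2 fell and 3 did not pass. Of all genes, 31.9% were higher and 26.2% lower. The median log2 fold change of the 11 genes was 0.21. The fall of DDI2, the protease that cuts NFE2L1, was lost with the GC and length correction (adjusted p of 0.168 by limma) and without any library but PD replicate 1 (0.077 to 0.146). The rise of NPLOC4, a cofactor of VCP, was lost with that correction (0.072). VCP, the ATPase that extracts the protein from the membrane, had 30.3, 30.7 and 29.5 FPKM in DMSO and 40.7, 41.5 and 42.4 FPKM in PD, a rise of 0.45 without overlap (adjusted p of 3.2e-05 by limma). OGT, the enzyme that adds N-acetylglucosamine to proteins, had 130, 130 and 126 FPKM in DMSO and 72.0, 74.4 and 73.9 FPKM in PD, a fall of 0.80 (adjusted p of 2.9e-06 by limma).

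Among 7 relatives and partners of NFE2L1, 1 rose, 4 fell and 2 did not pass, beside 31.9% higher and 26.2% lower of all genes. Their median log2 fold change was -0.28. The 1 that rose was KEAP1, the inhibitor of NFE2L2, whose call was lost with the GC and length correction (0.08, adjusted p of 0.33 by limma). The fall of NFE2L3, a further relative, was lost without DMSO replicate 2, DMSO replicate 3, PD replicate 2 or PD replicate 3 (adjusted p of 0.097 to 0.114 by limma). NFE2L2, the related factor of the oxidative stress response, had 28.8, 30.5 and 29.6 FPKM in DMSO and 16.7, 14.9 and 15.2 FPKM in PD. It fell by 0.88 (adjusted p of 1.1e-05 by limma) while NFE2L1 rose, with no overlap of libraries in either. MAFK, a small MAF protein that pairs with both on DNA, had 81.0, 78.8 and 100 FPKM in DMSO and 50.4, 53.2 and 51.7 FPKM in PD, a fall of 0.73 (adjusted p of 0.00032 by limma). DMSO replicate 3 was the highest, and the groups lay apart without it as well.

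Among 16 ubiquitin shuttles, deubiquitinases and other proteins that bind the proteasome, 4 rose, 5 fell and 7 did not pass. Of all genes, 31.9% were higher and 26.2% lower. The median log2 fold change of the list was -0.09. The rise of PITHD1 in this list was lost with the GC and length correction, with both other scalings and without PD replicate 2 (adjusted p of 0.050 to 0.147 by limma). PAAF1, which binds the ATPases during assembly, had 3.28, 3.05 and 3.29 FPKM in DMSO and 4.82, 5.01 and 4.91 FPKM in PD, a rise of 0.49 (adjusted p of 0.00017 by limma), opposite to PSMD5 and PSMD10. AKIRIN2, which brings proteasomes into the nucleus, had 19.7, 21.5 and 21.7 FPKM in DMSO and 14.9, 15.9 and 15.0 FPKM in PD, a fall of 0.43 (adjusted p of 0.00026 by limma). Among 6 genes of ubiquitin and its activating enzymes, 2 rose, 1 fell and 3 did not pass, around a median of 0.02, beside the same shares of all genes. UBA1, the main ubiquitin-activating enzyme, had 36.9, 38.1 and 39.5 FPKM in DMSO and 51.8, 53.7 and 55.2 FPKM in PD, a rise of 0.48 (adjusted p of 4.9e-05 by limma). RPS27A, which encodes ubiquitin fused to a ribosomal protein, had 200, 188 and 205 FPKM in DMSO and 161, 151 and 152 FPKM in PD, a fall of 0.35 (adjusted p of 0.00032 by limma). No gene of these lists reached 2-fold.

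In level, PSMA7 (mean of 189 FPKM over the 6 libraries), PSMB4 (140) and PSMB7 (123) stood at the top, followed by PSMC3 (89.8) and NFE2L1 (75.3). Core subunits are present in equal numbers in the particle, but their FPKM were not close to equal, and among the lowest were the alpha genes PSMA6 (0.227 FPKM), PSMA2 (0.362) and PSMA1 (2.22), besides PSMD9 (0.331) and, lowest of all, the beta gene PSMB11 (0.0091). PSMA6 had 21, 32 and 20 fragments in DMSO and 29, 27 and 23 fragments in PD, and PSMA2 had 42, 33 and 31 and then 33, 33 and 27 fragments, so neither library group stood out. Of these low genes, all but PSMB11 share coding sequence with a second annotated gene on the same strand, as does PSMB10. The shared part was 97.8% of coding bases in PSMA2, 88.6% in PSMA1, 70.4% in PSMA6, 58.7% in PSMD9 and 58.3% in PSMB10. The 5 genes with more than 50% shared had means of 0.227 to 4.70 FPKM, while the other 45 had a median of 27.2 FPKM, and only PSMG4 and PSMB11 among them were at or below 4.70 FPKM. PSMB11, the thymus subunit, had 1, 0 and 0 fragments in DMSO and 0, 1 and 0 in PD. How fragments on shared exons were counted is not given in the sources used here, and its part in these low levels was not tested.

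**Figure D4:**
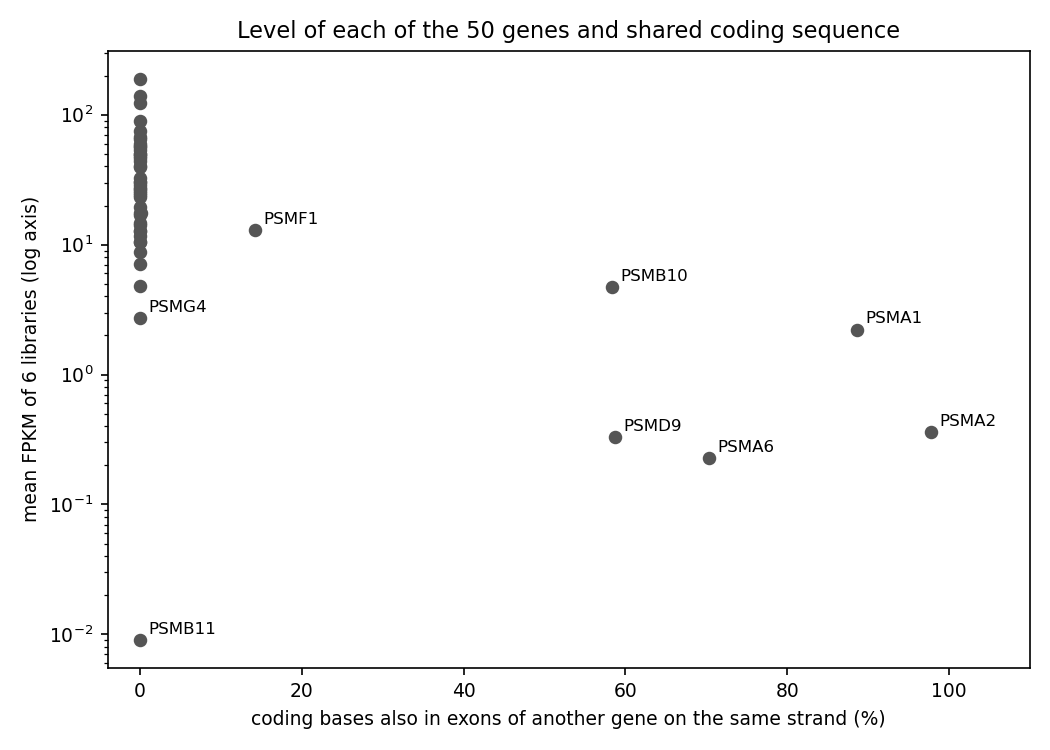
Mean FPKM over the 6 libraries (log axis) against the percentage of coding bases that also lie in exons of another gene on the same strand, with 1 point for each of the 50 genes. The 5 genes beyond 50% (PSMA2, PSMA1, PSMA6, PSMD9 and PSMB10) lie between 0.227 and 4.70 FPKM, while most genes at 0% lie higher, around a median of 27.2 FPKM.

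RefSeq promoter windows of 300 bases (250 before and 50 after a start) were matched by symbol for 44 of the 50 genes, in 56 windows, and not for PSMA7, PSMB1, PSMB6, PSMB7, PSMD4 and PSMG3. TGACNNNGC on either strand was in 28.6% of the members' windows and in 13.3% of all 35116 windows, and TGAGNNNGC in 25.0% and 18.3%. Windows of a gene with several starts can overlap, so they are not independent, and no test was made. TGACNNNGC was in 2 of 16 core windows, 7 of 20 cap windows and 4 of 8 assembly windows. Taken by response, either motif was in 6 of 15 windows of genes that rose, 10 of 21 of genes that fell and 7 of 15 of genes without a call, against 29.1% of all windows. TGACNNNGC alone was in 5 of 15, 6 of 21 and 4 of 15 of these windows. CCAAT, the box of the factor NF-Y, was in 46.4% of the members' windows and 34.6% of all, with 9 of 15 for genes that rose, 8 of 21 for genes that fell and 7 of 15 for genes without a call.

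The direction of the members moved with their base composition. The median GC content of the longest transcript was 52.9% among the members that rose, 41.9% among those that fell and 47.5% among those not called, against 48.0% over all genes tested. Across the 46 members the log2 fold change and the GC content had a Spearman correlation of 0.41, and of 0.19 across 14263 genes, where all points share the same 6 libraries and genes are not independent replicates. With a correction for GC content and length chosen after the data were seen, 12 members were higher and 18 lower. Over the 14263 genes in that fit, 3981 were higher and 4172 lower, against 4588 and 3780 of 14400 without the correction. PSMD4, PSMD8, PSMD2 and ADRM1 still passed, with smaller log2 fold changes of 0.57, 0.44, 0.39 and 0.24, and PSMG4 had -0.63.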

How the data were processed

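The authors aligned paired-end reads of NEBNext Ultra poly(A) libraries to hg38 with HISAT2, counted them with HTSeq 0.6.0 and deposited FPKM. Whether counting used strand is not given in the sources used here. FPKM are no counts, so limma 3.58.1 (R 4.3.3, trend prior) was fitted to log2(FPKM + 1) of the 14400 genes averaging 0.5 FPKM or more, PD against DMSO, 3 libraries each, without covariates. Calls had a Benjamini-Hochberg adjusted p of at most 0.05. FPKM are whole multiples of the value of 1 fragment, which gave the fragments per gene, and a voom fit on these was an alternative. Symbols, coordinates and overlaps came from GENCODE 44. Members and lists were chosen with earlier results of these data known. Described in full were the 5 largest rises and falls, NFE2L1, POMP, ADRM1 and the catalytic subunits, with the 2 largest changes of each pathway list. Libraries of a group differed by more than sampling noise (chi-square per gene of 2.30 to 3.78), so none was a repeat of another. The fit was also run on simulated data with far fewer changed genes than were called here, and no result above rests on that run.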

Additional observations from a re-analysis of the deposited data

How the results depend on the processing

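No member changed direction with a call under any of 13 alternative settings, the number of members higher in PD ran from 12 to 14 and lower from 15 to 22, and none passed 2-fold. Over all genes, of which 14263 to 28563 were tested by setting, 3981 to 5177 were higher and 3249 to 4276 lower. The members' medians, small beside the spread of the members, moved more. With median-of-ratios scaling the median log2 fold change was -0.050 over all members, -0.052 in the core, 0.044 in the cap and -0.34 in the assembly factors, and with upper quartile scaling -0.059, -0.064, 0.033 and -0.35. With the GC and length correction, added after seeing the data, these were -0.058, -0.048, -0.014 and -0.25, so the cap's median changed sign. Leaving out each library in turn gave -0.045 to 0.014 for all members, -0.076 to -0.0084 for the core, 0.049 to 0.091 for the cap and -0.31 to -0.26 for the assembly factors. Same-numbered samples shared only a number (correlations of their deviations of -0.027, -0.0046 and 0.090), and a fit with the replicate number as a block gave 13 members higher and 17 lower, losing PSMA4, PSMB1 and PSMC5 and gaining PSMD11. Calls lost elsewhere were those of PSMA4, PSMB1, PSMC5, PSMD3, PSMD12, PSMD14 and POMP, and PSMB6, PSMC2, PSMC3, PSMD7, PSMD11 and PSME2 became calls in some settings. The cause was not tested. PSMA2, PSMA6 and PSMD9, below 0.5 FPKM, were not called by voom on fragments either (adjusted p of 0.488, 0.721 and 0.717), and PSMB11 had too few fragments for it.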
